A study of Mus musculus with 25 samples.

Results

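The genes examined were 10 members of the Notch pathway: the receptors Notch1, Notch2 and Notch3, the ligands Dll1, Dll4, Jag1 and Jag2, and the HES and HEY factors Hes1, Hes6 and Hey1. They were taken by gene symbol from 24439 entries of the RNA-seq tables. The 37 ATAC-seq peaks whose nearest annotated gene is one of them were taken from 65053 consensus peaks. Of these peaks, 10 were assigned to Jag1, 10 to Hey1, 6 to Hes1, 2 each to Notch1, Notch2, Jag2 and Hes6, and 1 each to Notch3, Dll1 and Dll4.

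The libraries came from mouse pancreatic tumour cell lines, αTC1 (alpha TC1 clone 6, a single clone) as a model of glucagon-secreting alpha cells and βTC6 (beta-TC-6) as a model of insulin-secreting beta cells. RNA-seq covered 3 libraries of each line, and ATAC-seq, which reads chromatin accessibility from transposase cuts, covered 5 libraries of each line and 9 mixtures from 10% to 90% αTC1 cells, 1 library per mixture. αTC1 cells were grown with 10% foetal bovine serum and 2 g/L glucose and βTC6 cells with 15% serum in another medium, so that line and medium cannot be told apart. Nothing given with the data says that replicates came from separate cultures, so p-values measure the spread between these libraries, which may be technical.

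Notch signalling passes between touching cells. A Delta-like or Jagged ligand on one cell binds a Notch receptor on its neighbour, proteases release the intracellular part of the receptor, and this part joins RBPJ in the nucleus to switch on target genes such as those of the HES and HEY repressors. In the developing pancreas the pathway holds progenitors back from endocrine fate by repressing Neurog3.

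The lines carried the markers of their names. In αTC1, Gcg lay between 12113 and 14406 FPKM (fragments normalized for transcript length and sequencing depth) against 172 to 267 in βTC6, and Pdx1 and Ins1 were at 0 in all 3 αTC1 libraries. Markers of endothelial cells, a cell type that uses Notch heavily, summed to 0.22 to 0.27 FPKM in αTC1 libraries and 4.53 to 6.47 FPKM in βTC6 libraries, of which Esam made up most. The defining endothelial genes Cdh5 and Kdr did not pass 0.01 FPKM in any library. Duct and progenitor markers summed to 12.02 to 18.7 FPKM in αTC1 libraries and 34.9 to 57.3 FPKM in βTC6 libraries, where Krt7 was the largest and Sox9 was at 0. Immune markers summed to 0.92 to 1.2 FPKM in αTC1 and 2.03 to 2.19 in βTC6. The other way ran mesenchymal markers, mostly Col1a2 and Pdgfra, at 2.47 to 3.5 and 0.34 to 0.54 FPKM. So did acinar markers, mostly Cela1 in αTC1, at 3.59 to 3.74 and 0.22 to 0.96 FPKM. The part of such cells in the Notch gene differences was not tested. Total expected counts ran from 21954031 to 26033482 per RNA-seq library. Reads in consensus peaks ran from 4397851 to 10374903 per ATAC-seq library. The chi-square per gene between RNA-seq replicates was 2.06 for αTC1 replicates 1 and 2, 27.8 and 29.3 for αTC1 replicate 3 against these, and 17.3 to 38.4 among βTC6 replicates. In ATAC-seq, αTC1 replicates 4 and 5 differed from replicates 1 to 3 by 10 to 11.3 per peak, against 2.05 to 2.16 among those 3, and βTC6 pairs by 2.26 to 8.52.

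Between the lines, 8 of the 10 genes differed at an FDR under 5% when every gene with a count was tested with edgeR: 5 were higher in βTC6, beside 30.2% of all genes, and 3 in αTC1, beside 27.2%. The ligands Jag1, Jag2 and Dll4 and the receptor Notch1 were higher in βTC6, while Notch2 was 6.67-fold higher in αTC1. Hey1 and Hes1, repressors that Notch induces, were higher in αTC1, and Hes6, which antagonises Hes1, was higher in βTC6. Outside the members the targets ran the other way: of 7 other HES, HEY and feedback genes, 5 were higher in βTC6 at that FDR and 0 in αTC1. Dll1 and Notch3 did not pass the test. Because these are bulk libraries, fewer cells of a type and less RNA per cell cannot be told apart.

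The fits differ in which genes they test. With the study's filter (FPKM of at least 1 in all 3 libraries of either line), 5 of the 10 genes were tested with edgeR's quasi-likelihood test. All 5 differed at an FDR under 5%, 2 higher in βTC6 and 3 higher in αTC1, beside 38.7% and 36.0% of 12195 genes. A call needed that FDR together with a log2 fold change beyond 2 in size, and 1 was called higher in βTC6 and 2 higher in αTC1, beside 10.2% and 4.08% of the same genes. Without αTC1 replicate 3 the same tests gave 5 and 3 genes. Without βTC6 replicate 2 or 3, 2 genes in each direction were called and 3 in each passed the FDR, because Jag1 or Notch1 then met the filter. With ERCC spike-in library sizes, 1 gene higher in βTC6 and 3 in αTC1 passed the FDR. A gene that passed this filter through 1 line alone, as Jag2 and Notch2 did, was selected in part for being higher in that line. The other 5 genes were taken from a fit of 19570 genes without the filter. At the same FDR, 5 of the 10 genes were there higher in βTC6 and 3 were higher in αTC1, beside 30.2% and 27.2% of genes, and 4 and 2 passed the fold threshold too, beside 12.8% and 5.21%. FPKM values of the lines did not overlap for 8 of the 10 genes, against 61.9% of genes.

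Notch2, a receptor, was the most abundant of the 3 receptors in αTC1. Its FPKM was 1.21, 1.31 and 1.42 in the αTC1 libraries and 0.19, 0.24 and 0.16 in the βTC6 libraries. Every αTC1 library was above every βTC6 library. As a log2 fold change of βTC6 over αTC1, the sense used throughout, this was -2.74 ± 0.20 (SE) in the fit without the filter, adjusted p = 1.15e-07 by edgeR. In the filtered fit, which Notch2 entered through αTC1 alone, it was -2.69 ± 0.20. By limma on log2(FPKM + 1), a scale that shrinks low genes, it was -0.95 and not called.

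Notch1, the receptor with the largest change, ran the other way. Its FPKM was 0.20, 0.06 and 0.05 in αTC1 and 1.67, 1.03 and 0.94 in βTC6, from 8.21 to 11.9 expected counts against 216 to 404. The groups did not overlap. Its log2 fold change was 4.70 ± 0.30 in the fit without the filter, adjusted p = 3.39e-08 by edgeR. Notch1 missed the filter by 1 library, βTC6 replicate 3. The most abundant receptor was therefore Notch2 in αTC1 and Notch1 in βTC6.

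Notch3 was scarcely detected in either line. It held 10, 9 and 13 expected counts in αTC1 and 11, 8 and 17 in βTC6. Its log2 fold change was 0.08 ± 0.46 with an adjusted p of 0.897 by edgeR, and an FPKM of 0.0567 was the mean in both lines. A small difference in Notch3 would not have been detectable at this depth.

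Jag2, a Jagged ligand that binds Notch receptors on neighbouring cells, was the most abundant of the 4 member ligands in βTC6. Its FPKM was 17.07, 15.48 and 14.50 in βTC6 and 0.07, 0.09 and 0.45 in αTC1. The highest αTC1 value belonged to replicate 3, which held 46 of the 61 expected counts in αTC1. Jag2 had a log2 fold change of 6.24 ± 0.355 in the fit without the filter, adjusted p = 1.10e-08 by edgeR. In the filtered fit, which it entered through βTC6 alone, it was 6.29 ± 0.41. There, without αTC1 replicate 3, it was 7.67, a 2.61-fold larger change.

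Jag1, the other Jagged ligand, had no expected count in any αTC1 library and 148, 63 and 129 in the βTC6 libraries, or 1.14, 0.53 and 1.16 FPKM. Against a floor of 3 counts per library, Jag1 was at least 35.3-fold higher in βTC6. The adjusted p without the filter was 1.49e-06 by edgeR. Its mean level in βTC6 was 0.943 FPKM against 15.7 for Jag2.

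Dll4, a Delta-like ligand best known from endothelial sprouting, had 3, 0 and 1 expected counts in αTC1 and 69, 41 and 26 in βTC6. The ratio of the summed counts was 31.7, with a 95% exact counting interval of 12.1 to 118 that covers counting error only. Without the filter the fitted log2 fold change was 4.86 ± 0.67, adjusted p = 3.86e-05 by edgeR, and 6.14 without αTC1 replicate 1. Of the 5 endothelial markers, Esam ran from 0.10 to 0.19 FPKM in αTC1 and from 4.30 to 6.16 in βTC6, and Pecam1 from 0.04 to 0.09 and from 0.18 to 0.28, both in the direction of Dll4. Tek did not pass an FDR of 5%, and Cdh5 and Kdr were at or under 0.01 FPKM. Their part in the Dll4 difference was not tested.

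Dll1, a Delta-like ligand, was 0.90, 0.98 and 2.2 FPKM in αTC1 and 0.78, 0.92 and 0.92 in βTC6. The groups overlapped, and αTC1 replicate 3 was the high value. Dll1 had a log2 fold change of -0.01 ± 0.23 with an adjusted p of 0.973 by edgeR. Without αTC1 replicate 3 it was 0.15, adjusted p = 0.588 by edgeR.

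Hes6, a HES family gene that antagonises Hes1 and promotes neuronal differentiation, had the highest mean FPKM of the 10 genes in both lines, though in αTC1 replicate 3 Hey1 was higher. Its FPKM was 14.54, 16.77 and 14.64 in αTC1 and 31.19, 29.52 and 34.00 in βTC6. Every βTC6 library was above every αTC1 library. For Hes6 the log2 fold change was 1.10 ± 0.10, adjusted p = 6.97e-06 by edgeR, a 2.14-fold difference. With ERCC spike-in library sizes the same fold change was 1.05 with an adjusted p of 0.0502 by edgeR.

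Hes1, the Notch-induced repressor that holds back Neurog3, was 7.80, 7.87 and 9.66 FPKM in αTC1 and 3.41, 2.76 and 4.50 in βTC6, with no overlap. Hes1 had a log2 fold change of -1.23 ± 0.19, adjusted p = 3.48e-04 by edgeR. Hey1, a repressor of the HEY family, was 11.81, 12.12 and 18.95 FPKM in αTC1 and 2.46, 2.2 and 2.1 in βTC6. αTC1 replicate 3 was again the highest. The log2 fold change of Hey1 was -2.61 ± 0.20, adjusted p = 3.69e-06 by edgeR, and -2.34 without that replicate. Of the 3 HES and HEY genes, Hey1 alone passed the fold threshold, and the direction differed between Hes6 and the other genes.

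By mean FPKM the order in αTC1 was Hes6, Hey1, Hes1, Dll1, Notch2, Jag2, Notch1, Notch3, Dll4 and Jag1. The ranges of Hes6 and Hey1 overlapped there, as did those of Dll1 and Notch2, of Jag2 and Notch1, of Notch1 and Notch3, and of Dll4 and Jag1, which met at 0. In βTC6 the order was Hes6, Jag2, Hes1, Hey1, Notch1, Jag1, Dll1, Dll4, Notch2 and Notch3. There Hes6, Jag2, Hes1 and Hey1 did not overlap with their neighbours in the order, while Notch1, Jag1, Dll1 and Dll4 did.

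**Figure D1:**
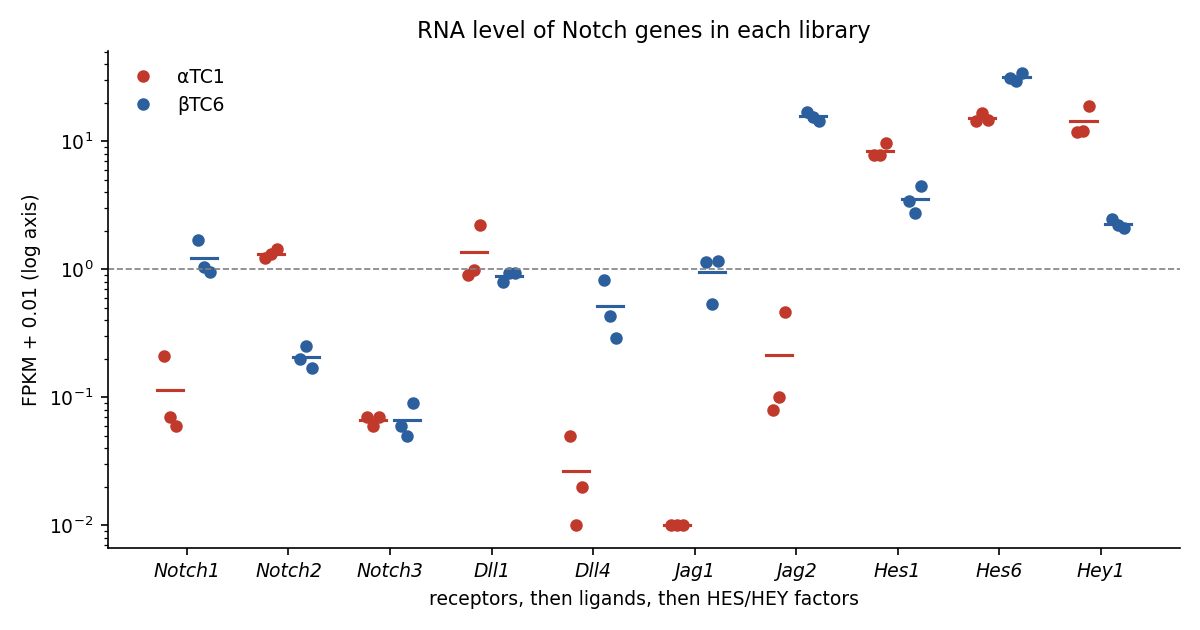
RNA level of the 10 genes in each library. The y axis is FPKM + 0.01 on a log axis, points are the 3 libraries of each line and short bars their means, and the dashed line is the FPKM filter of 1. Jag1 sits at 0 FPKM in the 3 αTC1 libraries and Hey1 and Notch2 are above in αTC1, while Jag2 and Notch1 are above in βTC6.

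Of 59 other pathway genes in 8 roles, a list chosen with earlier results of these data known, 43 passed the filter. At an FDR under 5%, 24 were higher in βTC6 and 12 in αTC1, beside 38.7% and 36.0% of all genes tested. With ERCC spike-in library sizes these numbers were 7 and 2. The median log2 fold change of the list was 0.31 against 0.0094 over all genes tested. Called were 4 higher in βTC6 and 1 higher in αTC1, but the 4 (Dlk1, Nrarp, Lfng and Neurl1a) passed the filter through βTC6 alone. That filter favours a difference in this direction without forcing a call: Mfng also passed through βTC6 alone and was not called. In the fit without the filter all 59 were tested, and 6 were called higher in βTC6 and 1 higher in αTC1, beside 12.8% and 5.21% of all genes.

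Dlk1, a ligand-like protein without the domain that activates Notch, was 242, 151 and 135 FPKM in βTC6 and 0, 0.05 and 0 in αTC1. In βTC6 it was more abundant than any member. Dner, a Notch ligand-like protein best known from neurons, ran the other way at 105, 103 and 91.7 FPKM in αTC1 and 18.4, 18.0 and 13.6 in βTC6. Its log2 fold change was -2.53 ± 0.13, adjusted p = 2.69e-07 by edgeR.

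Nrarp, a Notch target that dampens the pathway, was 2.72, 3.48 and 1.84 FPKM in βTC6 and had 2 expected counts in all of αTC1, adjusted p = 1.18e-07 by edgeR without the filter. Lfng, which adds sugars to Notch receptors, had 1 count in αTC1 and 3.58, 3.47 and 3.04 FPKM in βTC6, adjusted p = 6.58e-09 in the same fit by edgeR. Neurl1a, a ubiquitin ligase that acts on ligands, had a log2 fold change of 5.63 ± 0.16 there, adjusted p = 1.86e-11 by edgeR. The target gene Hes5 was listed at 36.0 expected counts in βTC6 and 1 in αTC1, and was called only without the filter, adjusted p = 5.73e-04 by edgeR. So was Hes3, with 15 counts against 1, adjusted p = 0.0172 by edgeR. Hes7 and Hey2 were also higher in βTC6 there without passing the fold threshold, at adjusted p of 0.0282 and 0.0133 by edgeR. Hes2 and Heyl did not pass the FDR. Of these target and feedback genes only Nrarp met the filter.

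No gene of the nuclear complex, no receptor-cutting protease and no co-repressor was called. At an FDR under 5% by edgeR with the filter, 2 of 7 genes tested in the nuclear complex were higher in βTC6 and 3 in αTC1, among 8 proteases 4 and 2, among 9 co-repressors 5 and 3, and among 11 ubiquitin ligases and endocytic regulators 8 and 1. These counts stand beside 38.7% and 36.0% of all genes tested, and nothing particular to a role is read from them. The acetyltransferase gene Kat2a had a log2 fold change of -1.02 ± 0.12, adjusted p = 4.40e-05 by edgeR, and Adam10, the protease that first cuts the ligand-bound receptor, one of 1.02 ± 0.09, adjusted p = 7.95e-06 by edgeR. Rbpj, the DNA-binding protein of the complex, had a log2 fold change of -0.61 ± 0.07, adjusted p = 4.75e-05 by edgeR, and Psenen, a subunit of the receptor-cutting gamma-secretase, one of 0.20 ± 0.08, adjusted p = 0.0347 by edgeR. Without the filter Psenen no longer passed, at 0.15 ± 0.09 with an adjusted p of 0.157 by edgeR. Poglut1, which glycosylates receptors, had a log2 fold change of -0.62 ± 0.09, adjusted p = 2.31e-04 by edgeR. The most abundant gene of 3 of these roles did not pass at that FDR: Ctbp1, the only co-repressor that did not, the RBPJ cofactor Snw1 and the ligase Dtx3. Neurog3, the endocrine fate gene that HES factors repress, was at 0, 0 and 0.03 FPKM in αTC1 and at 0 in each βTC6 library.

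The largest differences in accessibility lay at Jag1, Jag2 and Notch1, which were more open in βTC6, and upstream of Notch2 and Hey1, which were more open in αTC1. Of the 37 peaks, limma found 17 more accessible in βTC6 and 15 more accessible in αTC1 at the same FDR, beside 39.9% and 38.1% of all peaks. By FDR and fold threshold 10 were called higher in βTC6 and 2 higher in αTC1, beside 12.9% and 5.38%. Of the 10, 7 belonged to Jag1, 2 to Jag2 and 1 to Notch1, and the 2 higher in αTC1 belonged to Notch2 and Hey1. Normalized read counts of the lines did not overlap in 29 of the 37 peaks, against 63.9% of all peaks. With a pseudocount of 5 in place of 1 the called peaks numbered 2, both higher in βTC6, and with quantile normalization 7, of which 5 were higher in βTC6. At the FDR alone, quantile normalization gave 15 more accessible in βTC6 and 17 in αTC1.

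The sequences of 4 of the 12 called peaks are shown as the central 300 bases on the plus strand of mm9, because these peaks carry the differences between the lines. Capitals mark TGGGAA or its reverse complement, the core of the RBPJ site.
Jag1 promoter, chr2:136942517-136942816: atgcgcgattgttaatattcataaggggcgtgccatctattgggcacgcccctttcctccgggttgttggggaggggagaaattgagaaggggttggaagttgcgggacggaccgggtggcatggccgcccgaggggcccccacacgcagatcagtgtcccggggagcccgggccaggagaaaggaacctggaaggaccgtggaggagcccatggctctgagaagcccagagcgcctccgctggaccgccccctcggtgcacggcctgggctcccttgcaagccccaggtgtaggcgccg
Jag2 promoter, chr12:114168111-114168410: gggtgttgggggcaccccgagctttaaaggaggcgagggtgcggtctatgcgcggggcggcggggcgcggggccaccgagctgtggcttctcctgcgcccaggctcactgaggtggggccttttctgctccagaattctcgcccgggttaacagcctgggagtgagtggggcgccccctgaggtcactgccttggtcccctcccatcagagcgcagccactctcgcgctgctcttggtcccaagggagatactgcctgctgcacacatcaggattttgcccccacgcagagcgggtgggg
Notch2 upstream, chr3:97796184-97796483: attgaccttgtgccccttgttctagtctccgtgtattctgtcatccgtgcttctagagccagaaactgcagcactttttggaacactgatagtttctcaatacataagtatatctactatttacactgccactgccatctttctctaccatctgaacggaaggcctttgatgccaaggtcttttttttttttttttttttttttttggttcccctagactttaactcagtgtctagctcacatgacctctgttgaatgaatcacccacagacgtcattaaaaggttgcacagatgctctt
Hey1 upstream, chr3:8706333-8706632: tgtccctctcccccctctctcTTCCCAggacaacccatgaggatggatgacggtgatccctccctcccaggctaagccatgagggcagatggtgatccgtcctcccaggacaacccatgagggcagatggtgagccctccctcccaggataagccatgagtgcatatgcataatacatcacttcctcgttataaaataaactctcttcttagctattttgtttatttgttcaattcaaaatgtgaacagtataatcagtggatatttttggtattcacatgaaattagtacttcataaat
Of these 4 windows the Hey1 window held 1 match and the others none, while the whole Jag1 promoter peak held 2 outside its window. Over the members' peaks, 10 of 37 windows (27.0%) held TGGGAA on either strand, against 23.7% of all 65053 windows. CACGTG, the E-box that HEY factors can bind, was in 5.41% of the members' windows and in 5.41% of all windows. CACGCG, a site of HES factors, was in 5 of 37 windows, or 13.5%, against 5.70% of all windows. G and C made up 57.3% to 82% of the letters in these 5 windows. The share over all windows was not matched for G and C content, so no enrichment of HES sites is read from it. A match is a description of the letters in the window and no evidence of binding.

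The Jag1 promoter peak, chr2:136941918-136943415, centred 411 bp before the gene start in the table, was the most changed of the 37. Its TMM-normalized read count was 1.82, 2.11, 3.31, 2.46 and 3.18 in αTC1 and 81.5, 78.6, 72.8, 86.0 and 66.4 in βTC6. The lowest βTC6 value was far above the highest αTC1 value. On the log2(value + 1) scale, used for every peak, its log2 fold change was 4.46 ± 0.14 by limma, adjusted p = 2.83e-15.

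The other Jag1 peaks lay mostly upstream of the gene. Of 10 Jag1 peaks, 9 were higher in βTC6 at an FDR under 5% by limma and 7 passed the fold threshold. The intronic peak 1884 bp inside the gene (chr2:136939973-136940771) was just short of the threshold, with a log2 fold change of 1.89 ± 0.15. The peak at 219 kb upstream (chr2:137160814-137161287) ran the other way, at -0.69 ± 0.24, adjusted p = 0.0123 by limma.

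Among the distal Jag1 peaks, that at 121 kb upstream (chr2:137062318-137063435) was the strongest, from 3.47 to 7.56 normalized reads in αTC1, median 4.92, and from 31.5 to 42.2 in βTC6, median 39.4. The other 5 called distal peaks had αTC1 medians of 0.56 to 1.68 normalized reads and βTC6 medians of 7.13 to 10.7. Other peaks within 1 Mb of Jag1 that are assigned to other genes, 39 in number, had a median log2 fold change of 1.12, while the median over chromosome 2 was -0.16.

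Jag2 had 2 peaks at its start and both were called, the second narrowly. The one 554 bp upstream (chr12:114167972-114168548) was 1.12, 1.55, 2.25, 2.05 and 1.011 in αTC1 and 19.3, 19.3, 19.9, 15.7 and 15.2 in βTC6, a log2 fold change of 2.88 ± 0.20, adjusted p = 1.03e-10 by limma. The one 398 bp inside the gene (chr12:114167027-114167589) was 2.12 ± 0.34, adjusted p = 1.04e-05 by limma, with 1 to 26 reads per αTC1 library. Its call was lost without αTC1 replicate 3 (1.90), αTC1 replicate 5 (1.89) or βTC6 replicate 3 (1.96), and in replicates 4 and 5 alone (1.93), each time at the fold threshold. Other peaks within 1 Mb of Jag2 had a median log2 fold change of -0.62, in the opposite direction.

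Notch1 had a called peak at chr2:26356087-26356699. It was listed 2949 bp from a start and its centre lay 15.8 kb into the gene as GENCODE annotates it, over an annotated exon. It was 1.96, 1.69, 1.35, 2.05 and 2.89 in αTC1 and 18.0, 16.2, 17.8, 20.0 and 14.8 in βTC6. Here the log2 fold change was 2.63 ± 0.19, adjusted p = 1.72e-10 by limma. The other Notch1 peak (chr2:26344350-26344573) had a log2 fold change of -0.09 ± 0.34 and an adjusted p of 0.816 by limma.

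Notch2 was more accessible in αTC1 at its promoter (chr3:97817083-97817995) and 21.1 kb upstream. The promoter had a log2 fold change of -0.66 ± 0.13, adjusted p = 1.55e-04 by limma, with ranges of 16.6 to 23.5 in αTC1 and 9.64 to 14.2 in βTC6. The upstream peak (chr3:97796118-97796549) was 9.80, 8.29, 7.97, 9.96 and 8.67 in αTC1 and 0.426, 1.64, 0.541, 0.428 and 0.657 in βTC6. Its log2 fold change was -2.55 ± 0.22, adjusted p = 1.70e-09 by limma. Inside the Notch2 gene, 2 peaks assigned to Adam30 were outside the 37. The one at chr3:97910155-97910965 had a log2 fold change of -2.67 ± 0.21, adjusted p = 8.39e-10 by limma, and was noticed after its values were seen.

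Notch3 and Dll4 had single peaks with few reads. The Notch3 peak inside the gene (chr17:32280185-32280377) was 0.144 to 1.77 in αTC1, median 1.35, and 2.28 to 5.00 in βTC6, median 4.12, a log2 fold change of 1.28 ± 0.24, adjusted p = 7.05e-05 by limma. The Dll4 promoter peak (chr2:119151349-119152001) was 2.52 to 5.34 in αTC1 and 4.88 to 10.3 in βTC6, and the groups overlapped, with a log2 fold change of 0.87 ± 0.25, adjusted p = 0.00352 by limma. Dll1 had 1 promoter peak (chr17:15511986-15514102), 24.3 to 29.9 in αTC1 and 32.4 to 36.5 in βTC6, a log2 fold change of 0.32 ± 0.10, adjusted p = 0.00497 by limma. In replicates 4 and 5 alone, whose mitochondrial share the study computed as for the mixtures and not as for replicates 1 to 3, the Notch2 promoter, Dll1 and Dll4 peaks had adjusted p of 0.0801, 0.114 and 0.157 by limma in the same direction.

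Hes1, Hes6 and Hey1 were mostly more accessible in αTC1. Of the 6 Hes1 peaks 4 were higher in αTC1 at an FDR under 5% and 2 did not pass. The Hes1 peak nearest the start by the table's distances (chr16:30065167-30065450) was 17.8, 22.3, 23.1, 19.9 and 16.3 in αTC1 and 7.24, 9.23, 9.32, 4.14 and 9.58 in βTC6, a log2 fold change of -1.27 ± 0.18, adjusted p = 2.91e-06 by limma. The strongest by its moderated statistic lay upstream (chr16:30063675-30064562), where it was nearer to the start that GENCODE annotates, at -1.19 ± 0.10, adjusted p = 1.74e-09 by limma.

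Both Hes6 peaks were higher in αTC1, while Hes6 RNA was higher in βTC6. The peak at the start (chr1:93309330-93310368) was 61.5, 62.1, 69.7, 55.4 and 62.5 in αTC1 and 38.2, 28.3, 27.2, 33.8 and 30.6 in βTC6. Its log2 fold change was -0.96 ± 0.10, adjusted p = 3.91e-08 by limma. The peak 1153 bp upstream (chr1:93310695-93311209) was -1.54 ± 0.13, adjusted p = 2.23e-09 by limma. Other peaks within 1 Mb had a median log2 fold change of -1.10 and all peaks of chromosome 1 one of -0.61, and the part of this neighbourhood in the Hes6 values was not tested.

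Hey1 had 10 peaks, of which 6 were higher in αTC1, 2 higher in βTC6 and 2 did not pass at an FDR under 5%. The promoter (chr3:8666623-8668131) was 97.8, 105, 102, 111 and 94.9 in αTC1 and 60.8, 52.5, 52.4, 51.5 and 60.5 in βTC6, a log2 fold change of -0.87 ± 0.08, adjusted p = 1.13e-08 by limma. The peak 39.4 kb upstream (chr3:8706260-8706704) was 12.5, 12.2, 11.6, 13.0 and 15.5 in αTC1 and 0.568, 2.46, 0.405, 1.14 and 0.845 in βTC6. Its log2 fold change was -2.81 ± 0.24, adjusted p = 2.01e-09 by limma. The Hey1 peak 52.5 kb upstream (chr3:8719383-8719633) ran the other way, at 1.67 ± 0.24, adjusted p = 2.55e-06 by limma.

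**Figure D2:**
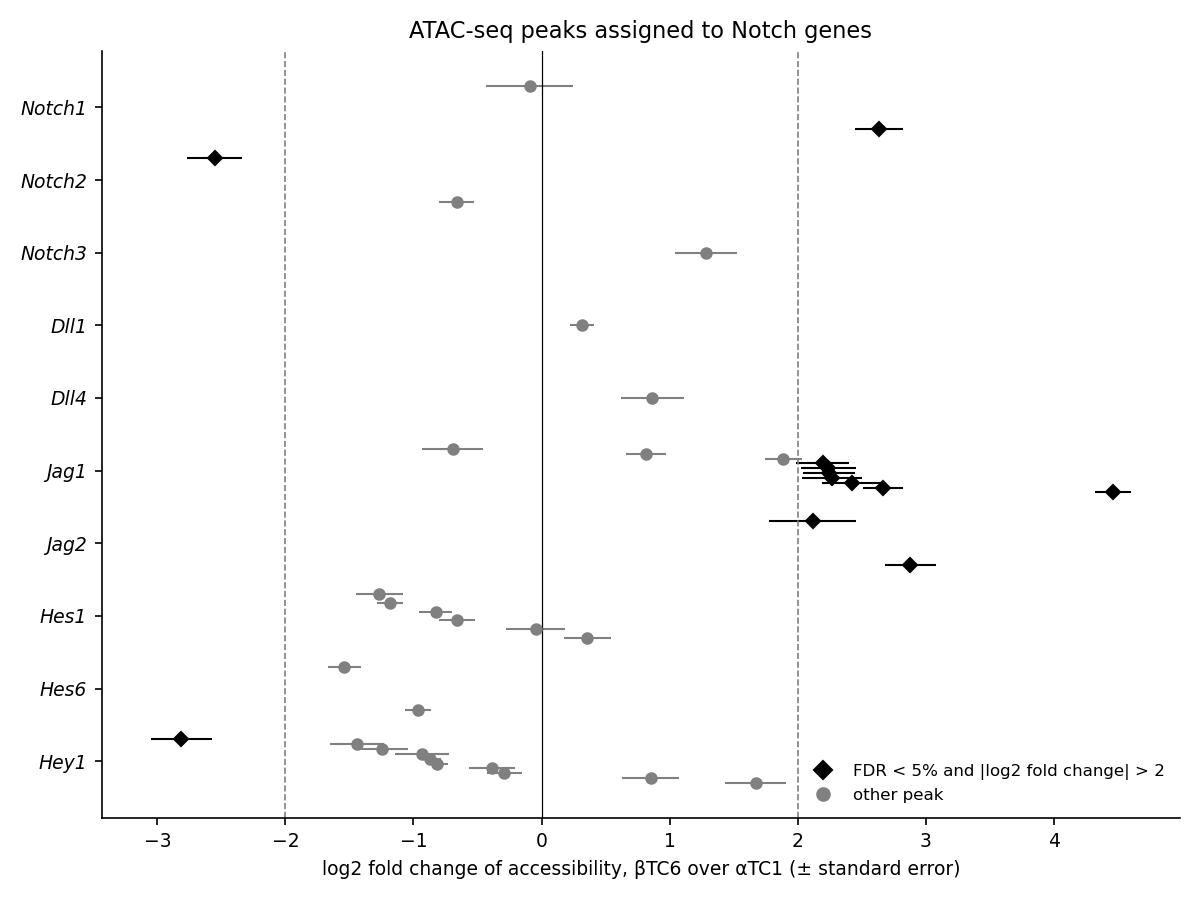
Log2 fold change of each of the 37 peaks by gene. The x axis is βTC6 over αTC1 with its standard error, diamonds are peaks past FDR 5% and the dashed fold lines at an absolute value of 2, and circles are the others. Diamonds lie at the right for Jag1, Jag2 and Notch1 and at the left for Notch2 and Hey1.

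In 8 of the 10 genes both RNA and the peak nearest the start passed an FDR of 5% in the fit without the FPKM filter, beside 51.0% of the 13686 genes with a peak. Of these 8 genes 7 had the same sign in both, beside 78.3% of all such genes, and Hes6 had opposite signs. Notch3 and Dll1 RNA did not pass.

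**Figure D3:**
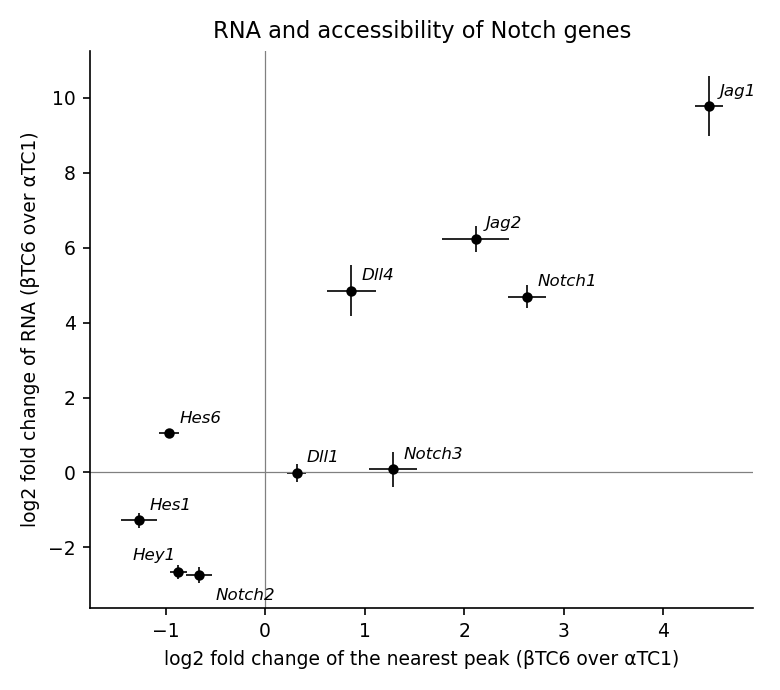
Log2 fold change of RNA (y axis, edgeR, no FPKM filter) against that of the nearest peak (x axis, limma), both βTC6 over αTC1, with standard errors. Jag1, Jag2 and Notch1 lie at the upper right, Hes1, Hey1 and Notch2 at the lower left, and Hes6 alone at the upper left.

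The 9 mixtures held the same peaks in libraries that took no part in the calls. Of 12 called peaks, 11 followed the share of αTC1 cells at an adjusted p under 0.05 in an exact 2-sided permutation test of Pearson's r, adjusted over the 12, with absolute r from 0.820 to 0.969. The direction was that of the pure lines in all 11. Unadjusted, the same 11 of 12 passed, beside 97.7% of all 11911 called peaks, and the median absolute r was 0.933 against 0.928 over all called peaks. The peak that did not pass was the Jag2 peak inside the gene, with r = -0.577 and an adjusted exact permutation p of 0.107.

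The Jag1 promoter fell from 57.7 normalized reads at 10% αTC1 to 9.96 at 90%, with 46.4, 39.5, 27.3, 28.8, 17.5, 14.8 and 10.9 between. Pearson's r was -0.969, adjusted exact permutation p = 1.98e-04, and Spearman's rho was -0.983, adjusted exact permutation p = 5.95e-04. Without the 10% and 90% mixtures r was -0.974. Across the 12 peaks absolute rho ran from 0.533 to 0.983, and r without the outermost mixtures from 0.283 to 0.974 in absolute value, with 9 of 12 past an adjusted p of 0.05. Notch1 was among the peaks that no longer passed, with r = -0.615 and an adjusted exact permutation p of 0.161.

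Of the 21 peaks named, 6 were lower in every mixture than a straight line between the means of the pure lines, beside 9.45% of all peaks and 12.1% of those called higher in βTC6, and 1, a Hey1 peak called higher in αTC1, was higher in every mixture, beside 4.03% of all peaks and 12.5% of those called higher in αTC1. Against the means of replicates 4 and 5 alone these were 4 and 1, beside 7.67% and 3.13% of all peaks. Of peaks called higher in βTC6, 12.2% were then below in every mixture, and of those called higher in αTC1, 8.45% were above. The Jag1 peaks 121 and 464 kb upstream were then below in 8 and 7 mixtures. With all replicates the median ratio to the line was 0.478 for the Jag1 peak 468 kb upstream, 0.643 for the Dll4 promoter, 0.654 for Notch1, 0.722 for the Jag1 promoter, 0.788 for the Jag1 peak 121 kb upstream and 0.814 for that at 464 kb. The Notch1 peak was 9.28 at 10% αTC1, where the line gives 15.8 and pure βTC6 ranged from 14.8 to 20.0, and 5.34 at 20%. The counting interval at 10% was 7.22 to 11.7. Over the 8409 peaks called higher in βTC6 the median over peaks within each mixture ran from 0.788 to 1.07. That range does not show how far single peaks spread.

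The Hey1 peak 39.4 kb upstream lay above the line in 9 of 9 mixtures. It was 22.2 at 80% αTC1 and 20.7 at 90%, against 11.6 to 15.5 in pure αTC1. The median ratio was 1.59, or 1.49 against replicates 4 and 5. Over the 3502 peaks called higher in αTC1 the median over peaks within each mixture ran from 1.04 to 1.2, which again is not the spread of single peaks. Each mixture is 1 library, so that these departures have no replicate check.

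**Figure D4:**
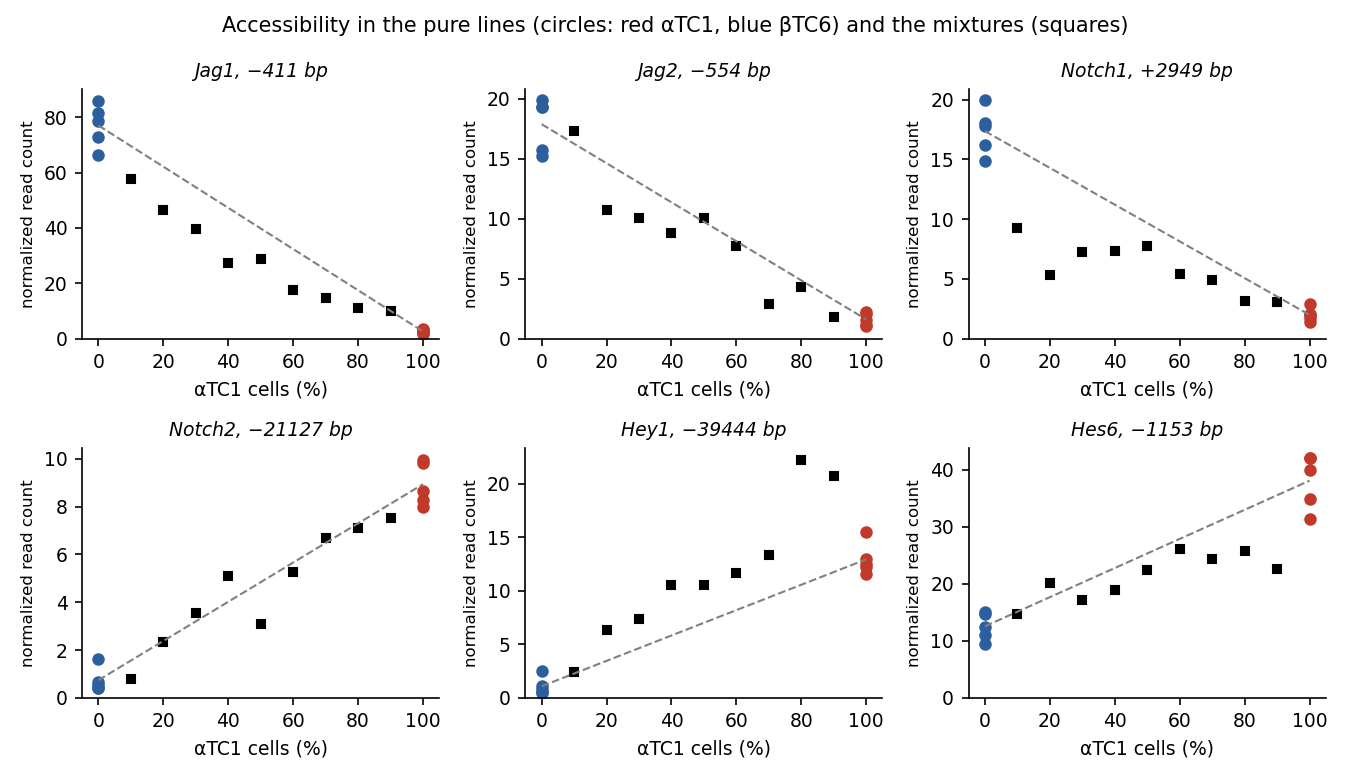
Normalized read count of the peak with the largest moderated statistic of 6 genes against the percentage of αTC1 cells. Circles are the 5 libraries of each pure line, squares single mixtures, and the dashed line joins the pure means. The Notch1 and Jag1 squares lie under the line in all 9 mixtures and the Hey1 squares above it.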

How the data were processed

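RNA-seq (3 libraries per line) and ATAC-seq (5 per line and 9 mixtures) were analysed from deposited tables. The members, the pathway list, the markers and the tests were chosen with earlier results of these data known. The authors made the deposited expected counts and the FPKM values with Trim Galore, Bowtie 2 and RSEM 1.2.12 on mm9 and Ensembl transcripts, and the rounded expected counts were tested. The deposited ATAC-seq signal is a TMM-normalized read count: the authors trimmed with Trimmomatic 0.32, aligned with BWA 0.7.9a to mm9, deduplicated with Picard 1.95, used MACS2 2.1.0 for peaks of each library, merged these with DiffBind 2.2.5 and annotated the nearest gene with HOMER 4.6. Whole reads were recovered by dividing each library by its lowest value, within 0.01 reads. Columns of the authors' own comparisons (peak class and signature labels) were not used.

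Genes were tested with edgeR 4.0.16 in R 4.3.3 (glmQLFit, glmQLFTest, TMM) and peaks with limma 3.58.1 (trend) on log2(value + 1), with Benjamini-Hochberg adjustment over all genes or peaks; a call needed an FDR under 5% with a log2 fold change beyond 2 in size. DESeq2 1.42.0 was an alternative. The scripts were tested on simulated data. The study normalized on ERCC spike-ins with RUVSeq without giving the number of factors, so spike-in fits were alternatives. Named were all 10 members, called pathway genes and the most abundant gene per role (1 gene that this rule names and 1 peak sequence are not reported here), each member's nearest, called and strongest peaks. Neurog3, Kat2a, Adam10 and the other peaks named were chosen after their values were seen. Sequences came from the mm9 genome and gene positions from GENCODE; RefSeq promoter windows were not used.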

Additional observations from a re-analysis of the deposited data

Results flagged for a closer look

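In 1 of 42 groups of 5 libraries tested over 21 named peaks, a library lay far from the rest. The Notch2 peak 21.1 kb upstream was 1.641 in βTC6 replicate 2, against 0.426 to 0.657 in the other βTC6 replicates. Chance alone flags about 1 in 20 groups. Without that library the log2 fold change was -2.71 instead of -2.55 and the peak was still called.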

How the results depend on the processing

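Without the FPKM filter, 6 members instead of 3 were called and 8 instead of 5 passed an FDR of 5%, because 10 rather than 5 were tested. The balance of the calls turned with it, from 1 higher in βTC6 and 2 in αTC1 to 4 and 2. The balance of member peaks at an FDR of 5% turned from 17 and 15 to 15 and 17 with quantile normalization. With ERCC library sizes, 9 of the 59 other pathway genes instead of 36 passed an FDR of 5%, 7 higher in βTC6 and 2 in αTC1, against 24 and 12; the cause was not tested. Called member peaks numbered 12 in the main analysis, 2 with a pseudocount of 5, which shrinks the changes of low peaks, and 7 with quantile normalization, 5 higher in βTC6 and 2 in αTC1; the cause of the latter was not tested. Leaving out each library in turn gave 3 to 4 member calls, 2 in each direction without βTC6 replicate 2 or 3, and 11 to 12 member peak calls, the one lost being the Jag2 peak inside the gene. Jag2 moved most, to 7.67 without αTC1 replicate 3, and Dll4 to 6.14 without αTC1 replicate 1. On log2(FPKM + 1) 2 members instead of 3 were called, 1 in each direction: Notch2 lost its call at -0.95, Jag2 was 3.80, Notch1 0.99, Jag1 0.94 and Dll4 0.55. Fitted on recovered reads with edgeR, the Jag1 promoter was 4.90 and the Hey1 peak 39.4 kb upstream -3.68. Replicate numbers paired the libraries weakly if at all: same-numbered deviations correlated between -0.0019 and 0.069 in ATAC-seq and between -0.051 and 0.0252 in RNA-seq. In ATAC-seq 3 of 5 αTC1 replicates correlated best with the βTC6 library of their own number, and in RNA-seq 1 of 3. With the replicate block, 12 member peaks and 3 members were called, and 5 members passed an FDR of 5%. Depth limits Notch3, Dll4 and Jag1, the scarcest members, and peaks of 1 to 26 reads.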
